A study of Homo sapiens with 16 samples.

Results

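KRT8, KRT18, KRT19, KRT7, VIM and NES, which encode intermediate filament proteins, were examined in G401 cells, an established line of renal rhabdoid tumor origin that lacks functional SMARCB1. They are 6 of the 57820 genes in the deposited tables. They were picked by symbol after differences between the guides in these same libraries were known, so the differences between guides given here describe the values that chose the genes and carry no test for them. Cells that stably expressed Cas9 received a guide that targets BRD9 (BRD9 KO) or, as the control, a guide for the bacterial gene LacZ, which the human genome lacks, and total RNA was sequenced on days 1, 2, 3 and 5 for each guide. There were 2 libraries in each of the 8 groups and 16 in all, and BRD9 KO libraries held 9185808 to 16560669 reads, against 11252814 to 15430060 reads for LacZ. Both arms lack SMARCB1 and carry Cas9, and no clone is described for these libraries, so each is taken as a population of infected cells that can hold unedited ones. SMARCB1 was listed at 0 reads in 15 of the 16 libraries and at 2 reads in the other, from LacZ cells on day 1. BRD9, the targeted gene, ranged over 16.6 to 25.9 CPM with the BRD9 guide, against 45.8 to 64.5 CPM with the LacZ guide, where CPM is the count scaled by the library's TMM-normalized total, and its RNA was thus detected in every BRD9 KO library. The 2 libraries of a group differed by more than counting noise in every group, but only slightly. The median spread ranged from 1.054 times counting noise (LacZ day 5) to 1.152 times (BRD9 KO day 2). The paper calls them biological replicates and does not say whether they were separate infections. P-values measure the spread between such pairs and may not cover variation between separate infections.

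Intermediate filaments are built from a large gene family whose use marks the type of a cell. KRT8 (a type II keratin) and KRT18 (a type I keratin) pair with each other and form the filaments of simple epithelia, which line ducts, glands and kidney tubules. KRT19 and KRT7 belong to the same simple epithelial set, VIM (vimentin) is the type III filament protein of mesenchymal cells, and NES (nestin) is a type VI protein best known from neural progenitors. Rhabdoid tumor cells are known for cytoplasmic whorls of intermediate filaments that can hold both vimentin and keratins.

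On GRCh37, KRT8 lies on chromosome 12 from 53290971 to 53343738 on the minus strand and KRT18 from 53342655 to 53346690 on the plus strand. The genes thus point away from each other, and 44042 bases separate their canonical starts in GENCODE. The longest KRT8 transcripts begin beyond the start of KRT18, so the annotated spans overlap there on opposite strands. The library kit did not keep the strand, and reads from that overlap cannot be told apart by strand. KRT7 also lies on chromosome 12 (52626304 to 52645970), KRT19 on chromosome 17 (39679869 to 39684560), VIM on chromosome 10 (17270240 to 17279592) and NES on chromosome 1 (156638555 to 156647199). VIM overlaps the antisense gene VIM-AS1, which was listed at 14 to 51 reads per library.

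KRT8 and KRT18 were among the most abundant RNAs of both arms, and BRD9 KO cells had more of them than LacZ cells from day 2 on, by 1.45-fold for each gene on day 5. KRT8 was present at 2920 and 3043 CPM in BRD9 KO libraries on day 1, against 2926 and 2966 CPM in LacZ libraries. It was at 3651 and 3755 CPM in BRD9 KO on day 2, against 3359 and 3369 CPM in LacZ. It was at 5441 and 5449 CPM in BRD9 KO on day 3, against 4283 and 4238 CPM in LacZ, and at 5341 and 5272 CPM in BRD9 KO on day 5, against 3656 and 3686 CPM in LacZ. The arms overlapped on day 1, and both BRD9 KO libraries stood above both LacZ libraries on days 2, 3 and 5. The KRT8 difference on the log2 scale was 0.018 (standard error 0.015) on day 1, 0.14 (standard error 0.015) on day 2, 0.35 (standard error 0.015) on day 3 and 0.53 (standard error 0.015) on day 5. Without the second BRD9 KO library of day 1 the day 1 difference was -0.010.

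KRT18, the partner of KRT8, followed nearly the same course. It was present at 2226 and 2275 CPM in BRD9 KO libraries on day 1, against 2165 and 2196 CPM in LacZ, and at 2730 and 2826 CPM in BRD9 KO on day 2, against 2440 and 2452 CPM in LacZ. It was at 4201 and 4244 CPM in BRD9 KO on day 3, against 3228 and 3213 CPM in LacZ, and at 3884 and 3858 CPM in BRD9 KO on day 5, against 2663 and 2686 CPM in LacZ. Both BRD9 KO libraries stood above both LacZ libraries on all 4 days. The KRT18 difference was 0.046 (standard error 0.014) on day 1, 0.18 (standard error 0.014) on day 2, 0.39 (standard error 0.014) on day 3 and 0.53 (standard error 0.014) on day 5 on the log2 scale. As background, both BRD9 KO libraries stood above both LacZ libraries in 20.4% of the 15027 tested genes on day 1, 20.7% on day 2, 25.3% on day 3 and 27.3% on day 5, and on all 4 days in 2.3% of them. In these bulk libraries, more cells that express a keratin and more keratin RNA per cell cannot be told apart.

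**Figure D1:**
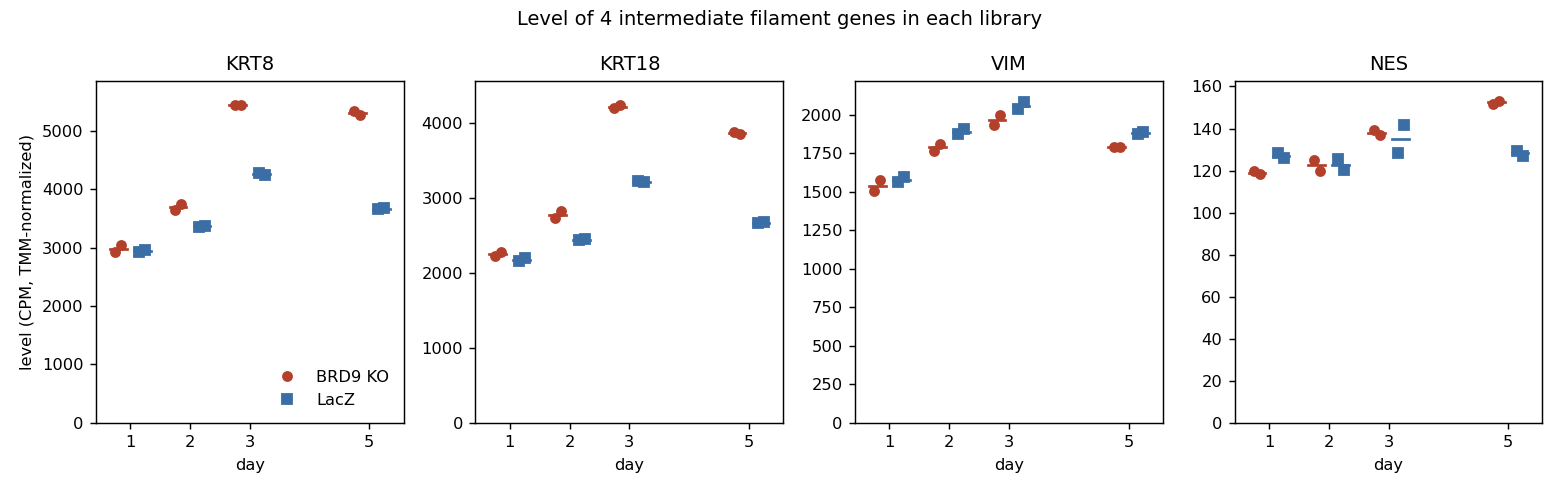
Level of KRT8, KRT18, VIM and NES in each library (TMM-normalized CPM, y axis from 0) against the day (x axis), with BRD9 KO libraries as circles and LacZ libraries as squares and a short line at each mean of 2. On day 5 KRT8 sits at 5272 to 5341 CPM in BRD9 KO and 3656 to 3686 CPM in LacZ, while VIM sits at 1790 to 1791 CPM in BRD9 KO and 1878 to 1887 CPM in LacZ.

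Per transcript length the pair was nearly balanced. KRT8 reached 2806 to 5427 TPM in BRD9 KO libraries, against 2819 to 4177 TPM in LacZ libraries, where TPM scales the count by transcript length and library total. KRT18 reached 2579 to 5045 TPM in BRD9 KO libraries, against 2517 to 3807 TPM in LacZ libraries. By TPM, KRT8 ranked between 12 and 31 among all genes in BRD9 KO libraries and between 16 and 32 in LacZ libraries. The ratio of KRT8 to KRT18 TPM was 1.07 to 1.14 in BRD9 KO libraries, against 1.10 to 1.14 in LacZ libraries. On days 1, 2 and 3 both BRD9 KO libraries had a lower ratio than both LacZ libraries, on day 3 with 1.08 and 1.07 in BRD9 KO against 1.10 and 1.10 in LacZ. On day 5 the ratios overlapped, at 1.14 and 1.13 in BRD9 KO against 1.14 and 1.14 in LacZ. Both keratins were picked with differences between the guides known. No background share of separated ratios is given, and the shift in the ratio was not tested. The pair together held 0.998% and 0.980% of all TPM in BRD9 KO libraries on day 5, against 0.672% and 0.674% in LacZ.

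The ratio of KRT8 to VIM, a keratin against the mesenchymal filament, separated the arms on every day. It was 2.05 and 2.04 in BRD9 KO on day 1, against 1.98 and 1.96 in LacZ, and 2.18 and 2.19 in BRD9 KO on day 2, against 1.89 and 1.87 in LacZ. It was 2.98 and 2.89 in BRD9 KO on day 3, against 2.22 and 2.15 in LacZ, and 3.15 and 3.11 in BRD9 KO on day 5, against 2.06 and 2.07 in LacZ. The day 5 ratios in BRD9 KO cells were thus above those of every LacZ library of any day. From day 2 on the ratio divides a gene that stood higher in BRD9 KO cells by one that stood lower. On day 1 the CPM of each gene overlapped between the arms. Both genes were picked with differences between the guides known, and no background share of separated ratios is given.

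**Figure D2:**
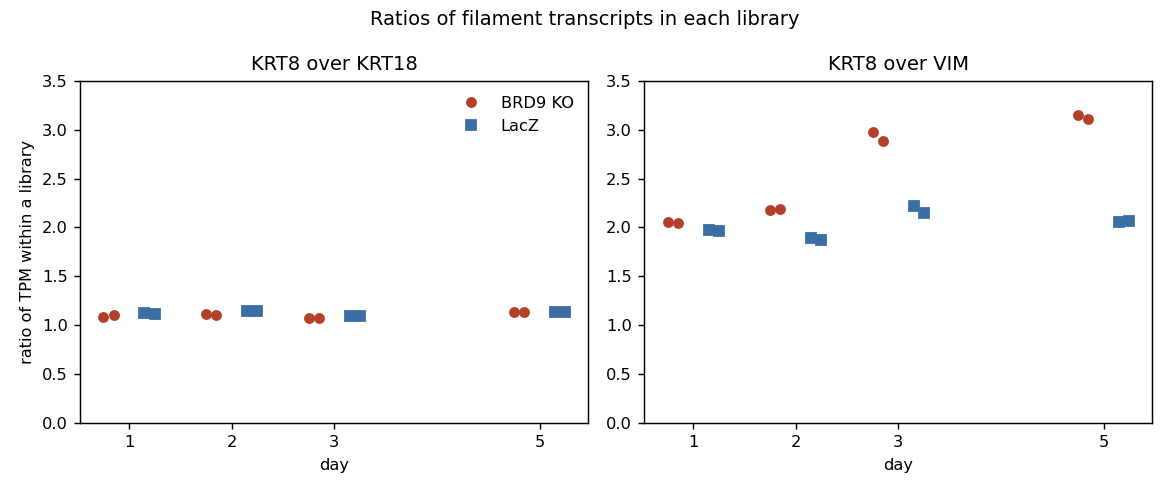
Ratio of KRT8 to KRT18 TPM (left) and of KRT8 to VIM TPM (right) within each library (y axis, no unit, from 0) against the day (x axis), with BRD9 KO as circles and LacZ as squares. KRT8 to KRT18 stays between 1.07 and 1.14 in BRD9 KO and 1.10 and 1.14 in LacZ, and KRT8 to VIM reaches 3.15 in BRD9 KO against at most 2.22 in LacZ.

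Processed copies of both keratin genes are scattered over the genome and could take reads from them. The 50 KRT8 pseudogenes held 1.21% to 1.60% of the reads of KRT8 and its pseudogenes together in BRD9 KO libraries and 1.21% to 1.53% in LacZ libraries, with KRT8P36 the most abundant. The 68 KRT18 pseudogenes held 0.221% to 0.313% in BRD9 KO libraries, against 0.224% to 0.316% in LacZ libraries, with KRT18P28 the most abundant. With the pseudogene counts added to the parent, the day 5 difference was 0.53 for KRT8 and 0.53 for KRT18 on the log2 scale.

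VIM was expressed throughout and stood slightly lower in BRD9 KO cells. It was present at 1505 and 1577 CPM in BRD9 KO libraries on day 1, against 1563 and 1597 CPM in LacZ, and at 1769 and 1811 CPM in BRD9 KO on day 2, against 1878 and 1906 CPM in LacZ. It was at 1935 and 1998 CPM in BRD9 KO on day 3, against 2037 and 2086 CPM in LacZ, and at 1791 and 1790 CPM in BRD9 KO on day 5, against 1878 and 1887 CPM in LacZ. The arms overlapped on day 1, and both BRD9 KO libraries stood below both LacZ libraries on days 2, 3 and 5. The VIM difference was -0.035 on day 1, -0.080 on day 2, -0.068 on day 3 and -0.072 on day 5 on the log2 scale, each with a standard error of 0.020. On day 1 it was -0.0050 without the first BRD9 KO library and -0.068 without the second. Both BRD9 KO libraries stood below both LacZ libraries in 21.8% of tested genes on day 2, 25.9% on day 3 and 27.2% on day 5.

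NES was at a far lower level, 35.1 to 46.7 TPM in BRD9 KO libraries, against 36.98 to 42.6 TPM in LacZ libraries. It was present at 120 and 118 CPM in BRD9 KO libraries on day 1, against 128 and 126 CPM in LacZ, and at 125 and 120 CPM in BRD9 KO on day 2, against 126 and 120 CPM in LacZ. It was at 139 and 137 CPM in BRD9 KO on day 3, against 128 and 142 CPM in LacZ, and at 152 and 153 CPM in BRD9 KO on day 5, against 129 and 127 CPM in LacZ. BRD9 KO was thus below LacZ on day 1, overlapped it on days 2 and 3, and stood above it on day 5. The NES difference was -0.096 (standard error 0.043) on day 1, -0.0027 on day 2, 0.034 on day 3 and 0.25 (standard error 0.042) on day 5 on the log2 scale. With 1 library of the day left out it ranged over -0.041 to 0.030 on day 2, and on day 3 it was -0.031 without the first LacZ library and 0.11 without the second. Both BRD9 KO libraries stood below both LacZ libraries in 20.6% of tested genes on day 1, and above both in 27.3% on day 5.

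KRT7 and KRT19 were nearly silent in G401. KRT7 had 3 and 4 reads in BRD9 KO libraries on day 1, against 7 and 4 in LacZ, 8 and 2 reads in BRD9 KO on day 2, against 6 and 10 in LacZ, and 8 and 3 reads in BRD9 KO on day 3, against 10.8 and 4 in LacZ. On day 5 it had 4 and 7 reads in BRD9 KO libraries, against 15 and 15 in LacZ. The arms overlapped on days 1, 2 and 3, and both BRD9 KO libraries were lower on day 5, as in 27.2% of tested genes. The day 5 difference was -1.59 on the log2 scale with a 95% interval of -2.83 to -0.35, which rests on those few reads. Counts of 10 or more, the minimum count of the filter, occurred only in LacZ libraries, so KRT7 passed the filter through that arm. KRT19 had 0 reads in 12 of the 16 libraries and 1 read in each of the others, 1 read in BRD9 KO and 3 in LacZ libraries in all, and did not pass the filter on low counts. A count of 0 allows up to 3 reads, or 0.181 to 0.332 CPM depending on the library, so no difference in KRT19 was detectable at this depth. Of the 6 genes, 5 passed the filter.

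**Figure D3:**
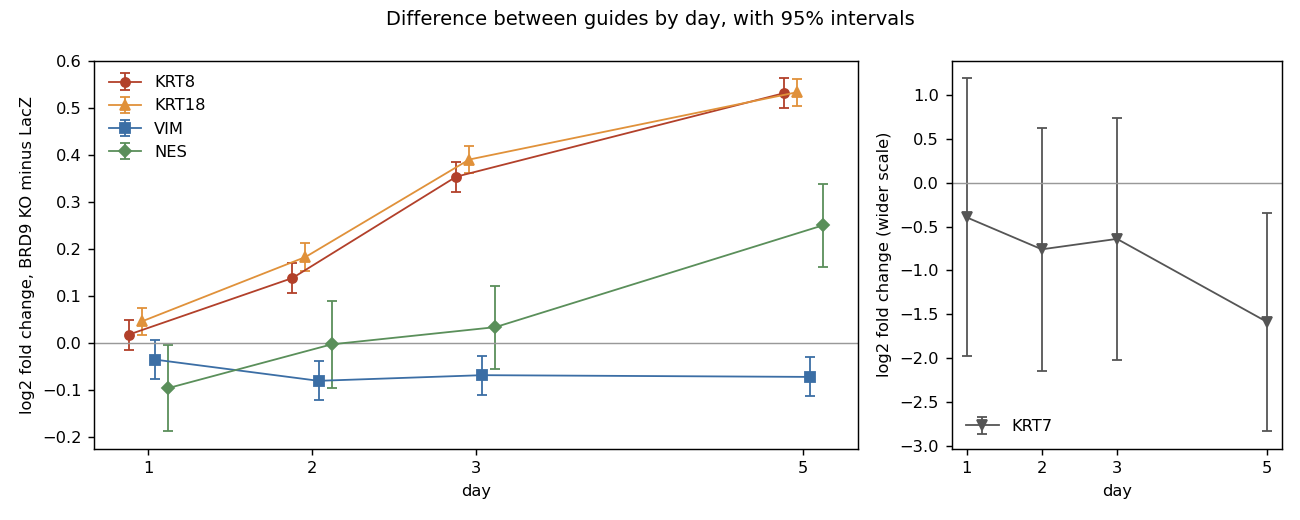
Log2 fold change of BRD9 KO minus LacZ (y axis) against the day (x axis) for KRT8, KRT18, VIM and NES (left) and, on a wider scale, KRT7 (right), as points with 95% intervals from the fit over all 16 libraries. KRT8 and KRT18 stand at 0.53 each on day 5, VIM at -0.072, NES at 0.25 and KRT7 at -1.59 with the widest interval, and KRT19 was not fitted.

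The course of the LacZ cells over time is a different contrast from the differences between guides and was tested. It uses the same LacZ libraries, and the genes were chosen with earlier results of these data known. Its p-values are therefore no fully independent test of these genes. Both keratins and VIM rose over the course in LacZ cells, with a peak on day 3, while no change was called for NES from day 1 to day 5. KRT8 rose in LacZ cells on day 5 relative to day 1 by 0.32 on the log2 scale (standard error 0.015, edgeR adjusted p = 4.31e-11). Step by step it rose on day 2 relative to day 1 by 0.19 (edgeR adjusted p = 2.26e-08) and on day 3 relative to day 2 by 0.34 (edgeR adjusted p = 1.17e-11), and it fell on day 5 relative to day 3 by 0.21 (edgeR adjusted p = 1.56e-08). KRT18 rose in LacZ cells on day 5 relative to day 1 by 0.29 (standard error 0.014, edgeR adjusted p = 3.8e-11), with steps of 0.17, 0.40 and -0.27. As background, 25.6% of the tested genes were called between LacZ day 5 and day 1, 31.2% between day 2 and day 1, 25.1% between day 3 and day 2 and 15.5% between day 5 and day 3.

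VIM rose in LacZ cells on day 5 relative to day 1 by 0.25 (standard error 0.020, edgeR adjusted p = 3.32e-08), with a step of -0.13 between day 5 and day 3 (edgeR adjusted p = 0.000139). The NES change in LacZ cells was 0.013 on day 5 relative to day 1 (standard error 0.043, 95% interval -0.077 to 0.10, edgeR adjusted p = 0.864), and its only called step was the 0.13 of day 3 relative to day 2 (edgeR adjusted p = 0.0288). KRT7 had a change of 1.62 on day 5 relative to day 1 (standard error 0.59, edgeR adjusted p = 0.0514) and was not called. It was called under a stricter filter (edgeR adjusted p = 0.0477) and with only the libraries of the contrast (0.0395). KRT7 reached 1 CPM only in the LacZ libraries of day 5 (1.12 and 1.34 CPM). In both of these fits it thus passed the filter only through the group where it was high, and the calls are no independent test. Limma-trend on TPM gave 0.82 (adjusted p = 0.167), the replicate block gave 1.18 (edgeR adjusted p = 0.33) and leaving out 1 library gave 1.17 to 2.18. In BRD9 KO cells the day 5 minus day 1 change, given as a description, was 0.83 for KRT8, 0.78 for KRT18, 0.22 for VIM and 0.36 for NES on the log2 scale. These changes and the differences between guides share the day 1 and day 5 libraries and are not separate evidence.

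The rest of the filament family was mostly silent. Of 64 other intermediate filament genes, 11 passed the filter, and the remaining 53 had at most 4 reads in any library, 32 of them none at all. On day 5, 2 of the 11 rose in BRD9 KO cells, 1 fell and 8 were not called, against a background of 15% of the tested genes called. INA (alpha-internexin), a neuronal filament protein, was present at 8.18 and 8.58 CPM in BRD9 KO libraries on day 5, against 2.31 and 2.67 CPM in LacZ. It rose by 1.76 on the log2 scale (standard error 0.20, edgeR adjusted p = 4.26e-06). Both BRD9 KO libraries also stood above both LacZ libraries on days 1, 2 and 3. The same held in 20.4%, 20.7% and 25.3% of tested genes on those days, and on days 1, 2, 3 and 5 together in 2.3%. INA was not called on day 1 (edgeR adjusted p = 0.377) or day 2 (0.145) and was called on day 3 (0.0115). NEFH, the heavy neurofilament subunit, was present at 76.9 and 84.7 CPM in BRD9 KO on day 5, against 68.8 and 68.1 CPM in LacZ, a rise of 0.25 (standard error 0.053, edgeR adjusted p = 0.00294). Without the second BRD9 KO library of day 5 NEFH was no longer called (edgeR adjusted p = 0.113).

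KRT80, a type II keratin, was present at 10.2 and 11.1 CPM in BRD9 KO libraries on day 5, against 15.1 and 17.01 CPM in LacZ, and fell by 0.58 on the log2 scale (standard error 0.12, edgeR adjusted p = 0.00317). It was not called by limma-trend on TPM (adjusted p = 0.0599). Its direction was the opposite of that of KRT8, the abundant type II keratin. The nuclear lamins LMNA, LMNB1 and LMNB2 were not called on day 5, with log2 differences of -0.034, -0.081 and -0.047, nor was SYNM (synemin), which co-assembles with vimentin, at -0.031. KRT10 and KRT222, the type I keratins that passed the filter, had day 5 differences of -0.088 and 0.23, and BFSP1, a lens filament protein, and PRPH (peripherin) had 0.12 and -0.12, none of them called. The KRT222 value was 0.027 without the first BRD9 KO library of day 5 and 0.44 without the second. Over the 11 genes the median difference on day 5 was -0.034, against -0.00078 over all tested genes. On day 3, 2 of the 11 rose and 3 fell against a background of 10.4%, and 3 were called in all when any one of the 4 day 3 libraries was left out. On day 2, 2 fell against a background of 2.7%, and 1 was called without the first LacZ library of day 2 and 0 without any other. On day 1, 0 were called by edgeR, DESeq2 and limma-trend, against a background of 0.539% in edgeR, and 5 had an unadjusted edgeR p under 0.05.

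Related genes were described from 6 lists of 135 genes, of which 82 passed the filter. The lists hold plakins and desmosome genes, filament partners, epithelial, mesenchymal and neural progenitor genes, and transcription factors. They were chosen with earlier results of these data known. On day 5, 17 of the 82 rose in BRD9 KO cells and 15 fell, 39% of them against the 15% of all tested genes. These shares are given as a description. The calls on the other days were 3 higher and 5 lower on day 1 against a background of 0.539%, 1 higher and 7 lower on day 2 against 2.7%, and 12 higher and 13 lower on day 3 against 10.4%. The 8 calls of day 1 became 3 or 4 when any one of the day 1 libraries was left out.

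Among plakins and desmosome genes, which tie keratin filaments to each other and to cell contacts, 11 of 20 passed the filter, and 3 rose and 2 fell on day 5. The share called was 45.5%, against 15% of all tested genes. PERP, a desmosome membrane protein, rose by 0.37 (mean of 832 CPM in BRD9 KO against 644 CPM in LacZ, edgeR adjusted p = 1.72e-10), and PLEC (plectin), which cross-links filaments, rose by 0.17 (671 CPM in BRD9 KO against 594 CPM in LacZ, edgeR adjusted p = 0.000809), which limma-trend on TPM did not call (adjusted p = 0.261). DSP (desmoplakin), which anchors keratins in desmosomes, fell by 0.17 (1502 CPM in BRD9 KO against 1686 CPM in LacZ). JUP (plakoglobin) fell by 0.14 and MACF1, a cytoskeletal linker, rose by 0.080, but the JUP call was lost without the first BRD9 KO library of day 5 (edgeR adjusted p = 0.141) or the second LacZ library (0.269), and the MACF1 call without any one of the 4 (0.0792 to 0.0968). Limma-trend called neither JUP nor MACF1 (adjusted p = 0.155 for each), and JUP was not called with only the libraries of the contrast (edgeR adjusted p = 0.0533). DST and PPL were not called at -0.061 and -0.11. DST was called with only the libraries of the contrast (edgeR adjusted p = 0.024) and with the replicate block (0.0193), and PPL with no filter (0.0157) and without the first BRD9 KO library (0.0193). The desmosomal cadherins DSG1 to DSG4 and DSC1 to DSC3 had at most 1 read in any library.

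Of the filament partners, chaperones, kinases, caspases and adaptor proteins that bind or modify filaments, 25 of 26 passed the filter, and 5 rose and 4 fell on day 5. The share called was 36%, against 15% of all tested genes. CRYAB (alphaB-crystallin), a small heat shock protein that binds filaments, was present at 604 and 609 CPM in BRD9 KO on day 5, against 447 and 436 CPM in LacZ, a rise of 0.46 (standard error 0.021). DNAJB6, a co-chaperone of KRT18, rose by 0.21. FLNA (filamin A), an actin cross-linker that binds vimentin, fell by 0.27 (1403 CPM in BRD9 KO against 1695 CPM in LacZ). CDK1 and PNN (pinin) fell by 0.16 and 0.10, but the CDK1 call was lost without either BRD9 KO library of day 5 or the first LacZ library (edgeR adjusted p = 0.0603 to 0.112), and the PNN call without any one of the 4 (0.0546 to 0.23). DESeq2 and limma-trend called neither of these 2. AHNAK at -0.049 and YWHAZ at 0.028 were not called, but AHNAK was called with no filter (edgeR adjusted p = 0.0363) and with only the libraries of the contrast (0.00653).

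Epithelial genes other than keratins moved in both directions. Of 28 genes 12 passed the filter, and 2 rose and 2 fell on day 5, a share of 33.3% against 15% of all tested genes. CDH1 (E-cadherin) had at most 4 reads and EPCAM at most 6 in any library. ELF3, an epithelial transcription factor, was present at 8.81 and 7.06 CPM in BRD9 KO libraries, against 4.39 and 3.39 CPM in LacZ, a rise of 1.00 (standard error 0.19, edgeR adjusted p = 0.00103), which limma-trend on TPM did not call (adjusted p = 0.0677). MARVELD3, a tight junction protein, fell by 0.26 (57.7 CPM in BRD9 KO against 69.4 CPM in LacZ). OCLN (occludin) rose by 0.23 and MUC1 (mucin 1) fell by 0.54. The OCLN call was lost without the second BRD9 KO library of day 5 (edgeR adjusted p = 0.125) or the first LacZ library (0.16) and by DESeq2 (adjusted p = 0.0623) and limma-trend (0.171), and the MUC1 call without the second BRD9 KO library (0.163) or the second LacZ library (0.0702). SPINT2 at -0.035 and TJP1 at 0.020 were not called.

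Of 22 mesenchymal genes 13 passed the filter, and 5 rose and 4 fell on day 5. VCAN (versican), a matrix proteoglycan, rose by 0.38 (608 CPM in BRD9 KO against 468 CPM in LacZ). S100A4, a calcium-binding protein of motile cells, fell by 0.47 (316 CPM in BRD9 KO against 437 CPM in LacZ), TAGLN (transgelin) fell by 0.23, and PDGFRA, a growth factor receptor, fell by 0.67 (15.6 CPM in BRD9 KO against 25.0 CPM in LacZ). ITGB1 (integrin beta 1) rose by 0.078, and ZEB1 at -0.022 and TWIST2 at 0.018 were not called. The median day 5 difference was 0.034 over the 13 mesenchymal and -0.026 over the 12 epithelial genes.

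Of 16 neural progenitor genes, a list chosen beside NES, 6 passed the filter, and 33.3% of these were called on day 5, against 15% of all tested genes. TUBB3, a neuronal tubulin, rose by 0.43 (410 and 386 CPM in BRD9 KO against 287 and 303 CPM in LacZ) and MSI2, an RNA-binding protein, fell by 0.21, a call that limma-trend on TPM did not make (adjusted p = 0.0636), while MSI1 at 0.041 and NOTCH1 at -0.041 were not called. SOX2 had at most 1 read in any library. Of 23 transcription factors known to bind simple keratin genes or genes like them, 15 passed the filter, and 20% of these were called on day 5. JUNB rose by 0.29 (40.6 and 47.5 CPM in BRD9 KO against 35.9 and 37.2 CPM in LacZ, edgeR adjusted p = 0.00567), FOSL2 fell by 0.20 and JUND fell by 0.25. The JUNB call was lost without the second BRD9 KO library, at 0.15 (edgeR adjusted p = 0.276), or the first LacZ library (0.0776), and the JUND call without the second BRD9 KO library (0.0609). With limma-trend on TPM the difference was -0.077 for JUND (adjusted p = 0.524) and -0.22 for FOSL2 (0.194), and neither was called. TFAP2A at -0.093 and SP1 at -0.038 were not called.

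**Figure D4:**
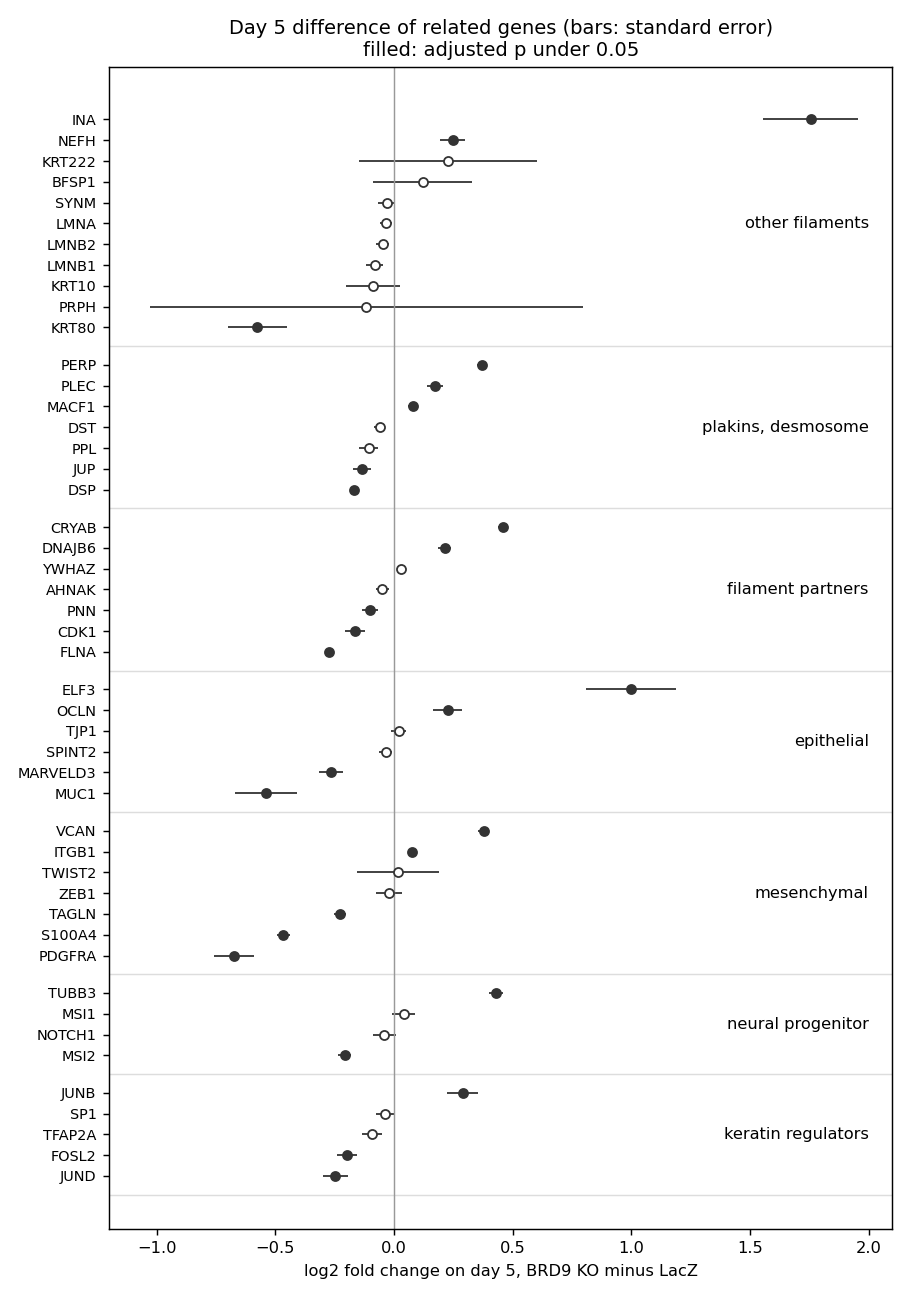
Log2 fold change of BRD9 KO minus LacZ on day 5 (x axis, bars are standard errors) for the 11 other filament genes that passed the filter and for the genes named from the 6 related lists (y axis), with filled points for an adjusted p under 0.05. INA at 1.76 and ELF3 at 1.00 lie farthest to the right and PDGFRA at -0.67 and KRT80 at -0.58 farthest to the left, and each list has called genes on both sides.

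Within 250 kb of KRT8 and KRT18, 7 other genes passed the filter and 0 were called on day 5 by edgeR, DESeq2 or limma-trend, with 4 at an unadjusted p under 0.05 in edgeR. On the other days 1 was called by edgeR, IGFBP6, a binding protein of insulin-like growth factors, which fell by 0.38 on day 3 (adjusted p = 0.0426). Of all tested genes, edgeR called 15% on day 5 and 10.4% on day 3. With 7 genes, 0 or 1 call cannot be told apart from these shares. EIF4B, a translation factor, was at 703 CPM in BRD9 KO against 723 CPM in LacZ, a difference of -0.041 on the log2 scale that turned to 0.015 with limma-trend on TPM. The others were RP11-983P16.4 (-0.74), TENC1 (-0.19), SPRYD3 (0.22), IGFBP6 (-0.087), CSAD (-0.076) and ZNF740 (-0.079). None of the 8 other keratin genes in that interval passed the filter.

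Across the 16 libraries KRT8 and KRT18 were each other's closest gene among 15026 others, with a Pearson correlation of log2 CPM of 0.996, and of 0.996 over the 8 BRD9 KO and 0.995 over the 8 LacZ libraries. The next closest to KRT8 were ZDHHC18 (0.971), SEC14L2 (0.967), NR4A2 (0.966) and ENC1 (0.965). Those next closest to KRT18 were SEC14L2 (0.980), NR4A2 (0.974), MICAL2 (0.972) and PPM1F (0.966). NR4A2 rests on few reads, with a mean of 0.70 CPM over the 16 libraries. VIM was most like NAE1 (0.972), PSMC4, NOP2, TRMT1 and ECT2 (0.967), and NES was most like LEMD2 (0.928), KIAA0947, GLI4, SIRT7 and ARFGAP1 (0.923). KRT7, with its few reads, reached 0.832 with PRPF8, followed by RP11-109P14.9, C7orf49, ATP6V0A2 and AIRE. RP11-109P14.9 and AIRE also had few reads, with means of 0.51 and 0.53 CPM. VIM correlated with KRT8 at 0.856 over the BRD9 KO libraries, 0.931 over the LacZ libraries and 0.645 over all 16. These libraries share their days and guides, and the correlations describe the shared course only.

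Apart from CD68, markers of other cell types were at low levels. Of 10 blood cell genes 4 were at 0 in every library, and the summed level was 71.8 to 146 TPM in BRD9 KO libraries, against 71.8 to 137 TPM in LacZ libraries, and 0 of the 4 tested genes were called between the guides on any day by edgeR, DESeq2 or limma-trend, with 1 at an unadjusted edgeR p under 0.05 on day 1 and 1 on day 5. Of all tested genes, edgeR called 0.539%, 2.7%, 10.4% and 15% on days 1, 2, 3 and 5. With 4 genes, a count of 0 cannot be told apart from these shares. CD68, a lysosomal protein that many cell lines express, had 105 CPM in BRD9 KO against 96.1 CPM in LacZ on day 5. The 7 endothelial genes summed to 0.10 to 0.84 TPM in BRD9 KO libraries, against 0.32 to 0.89 TPM in LacZ libraries. In the LacZ course, CD68 fell by 0.36 on day 5 relative to day 1 (edgeR adjusted p = 5.1e-06) and VWF, an endothelial clotting protein with at most 37 reads in any library, rose by 1.44 (edgeR adjusted p = 0.00613). Their part in the keratin course was not tested.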

How the data were processed

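Total RNA of G401 cells was sequenced by the authors on a NextSeq with the NEBNext Ultra kit. Per the submitters' processing notes and the methods, reads were aligned to hg19 with STAR, quantified per gene with RSEM and tested with DESeq2 (versions not given in the sources used here). The deposited expected counts are RSEM's estimates of reads per gene, and 35.7% of those above 0 carry decimals. They were rounded to whole numbers. The deposited TPM, scaled by the authors' RSEM runs to transcript length and library total, gave ratios and ranks and served as an alternative.

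Genes were kept by filterByExpr (minimum count 10, minimum total 15), which left 15027. A quasi-likelihood model of edgeR 4.0.16 (glmQLFit, glmQLFTest, R 4.3.3) was fitted to TMM-normalized counts with 8 group means and 8 residual degrees of freedom. Calls needed a Benjamini-Hochberg adjusted p under 0.05 over all tested genes. The code was tested on simulated data. Alternatives were DESeq2 size factors, no filter, a filter of 1 CPM in 2 libraries, DESeq2 1.42.0, limma-trend 3.58.1 on log2(TPM + 1), only the libraries of a contrast, a replicate block, leaving out each library and counts summed with pseudogenes.

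Members and lists were chosen with earlier results of these data known. Named genes were the 6 members, their pseudogenes, tested filament genes, tested neighbours within 250 kb, the 5 genes most like each tested member and, per related list, up to 3 called genes per direction with the smallest day 5 p and up to 2 uncalled genes with the highest mean CPM. CDH1, EPCAM, SOX2, CD68, VIM-AS1 and the desmosomal cadherins were named outside that rule. TUBB3 and KRT222 have 2 identifiers each, of which the more abundant was used. Positions are from GENCODE 44 lifted to GRCh37. PECAM1 was not analysed here. Some genes and sequences that this rule covers are not reported here. Limits for counts of 0 cover counting error only. Intervals of the log2 differences come from the edgeR fit and include its estimate of the spread between the libraries of a group.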

Additional observations from a re-analysis of the deposited data

Results flagged for a closer look

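For several genes the difference between BRD9 KO and LacZ itself differed between day 5 and day 1, by the interaction term of the edgeR fit adjusted over all tested genes. This term was called for 7.12% of all tested genes. Most of the genes below were named for a small day 5 p, so they were picked in part for a large day 5 difference and the term is no independent test of them. The values are the day 5 difference minus the day 1 difference on the log2 scale. Among filament genes it was 1.12 for INA (adjusted p = 0.0457). Among plakins and desmosome genes it was 0.34 for PERP (adjusted p = 1.65e-07), 0.22 for PLEC (0.00545), -0.19 for DSP (8.6e-07), -0.16 for DST (0.00179) and -0.20 for PPL (0.0393). Among filament partners it was 0.43 for CRYAB (adjusted p = 2.34e-08), -0.096 for FLNA (0.00616) and -0.28 for CDK1 (0.00716). Among epithelial genes it was 1.19 for ELF3 (adjusted p = 0.0109) and -0.26 for MARVELD3 (0.0317). Among mesenchymal genes it was 0.32 for VCAN (adjusted p = 4.52e-06), -0.43 for S100A4 (2.93e-07) and -0.56 for PDGFRA (0.00258). It was 0.47 for TUBB3 (adjusted p = 1.01e-06), -0.25 for MSI2 (0.000308), 0.39 for JUNB (0.00886) and, beside KRT18, -0.10 for EIF4B (0.019). NES stood below LacZ in both BRD9 KO libraries on day 1, by -0.096, and above it in both on day 5, by 0.25, and the difference between these days was not tested because NES was chosen from these contrasts. With 2 libraries a group, no single library could be tested for standing apart.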

How the results depend on the processing

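Of 225 recomputed member differences between the guides, 219 moved by less than a limit set for each gene. The limit was the pooled standard deviation of log2 CPM within groups, scaled to a difference between 2 libraries. It was wide for KRT7, with a pooled standard deviation of 0.50. The KRT7 day 1 difference thus counted as unmoved, though it ranged over -0.84 to 0.16 with a library left out. Leaving out 1 library gave ranges of -0.010 to 0.045 for KRT8 on day 1, 0.16 to 0.20 for KRT18 on day 2, -0.031 to 0.11 for NES on day 3, -1.82 to -0.25 for KRT7 on day 2 and -1.22 to 0.27 for KRT7 on day 3. The changes of KRT8, KRT18 and VIM in LacZ cells from day 1 to day 5 stayed called throughout. That of NES was -0.0021 with no filter and -0.0019 to 0.021 with a library left out. That of KRT7 was called at 1.62 under the 1 CPM filter and at 1.62 with only the libraries of the contrast. In these fits KRT7 passed the filter only through LacZ day 5, where it was high. Its change was not called by limma-trend (0.82), with the block (1.18) or with a library left out (1.17 to 2.18). For the change in BRD9 KO cells, for which the alternatives were chosen after seeing the data, limma-trend on TPM gave 0.88 for KRT8, 0.83 for KRT18 and 0.27 for VIM. Limma-trend called 3, 3, 14 and 20 related genes on days 1, 2, 3 and 5, and 0 and 1 other filament genes on days 2 and 3. The shares of all tested genes called under the alternatives are not given, so counts of calls in this section have no background. DESeq2 called 1 other filament gene on day 2, and 1 was called on day 1 with no filter. With a library left out, 3 to 4 related genes were called on day 1, 0 to 1 other filament genes on day 2, and 3 on day 3 whichever library was left out. Limma-trend turned the sign of the uncalled NOTCH1 (0.077) and EIF4B (0.015). Leaving out a library turned the sign of uncalled KRT10 (-0.25 to 0.019), ZEB1 (-0.074 to 0.012), PRPH (-1.16 to 0.66), BFSP1 (-0.15 to 0.30), TWIST2 (-0.028 to 0.049), MSI1 (-0.042 to 0.10), NOTCH1 (-0.076 to 0.00056) and CSAD (-0.19 to 0.066). The cause of these shifts was not tested. On day 5 limma-trend also did not call KRT80, PLEC, MACF1, JUP, CDK1, PNN, ELF3, OCLN, MSI2, FOSL2 and JUND, and DESeq2 did not call CDK1, PNN and OCLN. Of the named genes outside the members, 9 lost their day 5 call with at least 1 library left out.

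The replicate number was used as no more than a name, and pairs were not assumed. Residuals of same-numbered BRD9 KO and LacZ libraries correlated at -0.0123, -0.0489, -0.0245 and -0.0176 over all genes on days 1, 2, 3 and 5, and at -0.0435, -0.118, 0.101 and 0.177 over genes above a log2 CPM of 5, with no one sign over the days. With the replicate block within days, 6, 8, 25 and 31 related genes were called on those days and 33 in LacZ cells over time. These counts also have no share of all tested genes beside them. The day 5 difference with the block was 0.53 for KRT8 and 0.53 for KRT18. DST, not called in the fit reported, was called with the block (adjusted p = 0.0193) and with only the libraries of the contrast (0.024). With 2 libraries a group the few reads of KRT7 and KRT19 limit what can be said of them.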

Other observations

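In LacZ cells, the related lists also moved over time, with 23 of 82 genes higher and 20 lower on day 5 than on day 1 by edgeR, against 25.6% of all tested genes called. Of the transcription factors, 2 rose and 6 fell. FOS had a log2 change of -1.34, FOSB of -1.03, JUNB of -0.86 and KLF4 of -0.79, all of them called, and FOSL2 rose by 0.31. Of the filament partners 11 rose and 4 fell, among them the mitotic kinases PLK1, which rose by 0.43, and AURKB, which rose by 0.28. Among junction genes EPPK1 (epiplakin) and CLDN4 rose by 0.98 and 0.80, each with at most 79 reads in any library, and TJP3 fell by 0.94. Among mesenchymal genes TAGLN rose by 0.47 and VCAN fell by 0.45. These genes were singled out after their values were seen.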
